A study of Mus musculus with 24 samples.

Results

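The genes described here were 6 mRNA decay factors: Zfp36 (ENSMUSG00000044786), Zfp36l1 (ENSMUSG00000021127), Zfp36l2 (ENSMUSG00000045817), Zc3h12a (ENSMUSG00000042677), Zc3h12c (ENSMUSG00000035164) and Rc3h1 (ENSMUSG00000040423). They were chosen by name, as the rows of the deposited table whose gene symbol was one of these 6, out of 24273 genes. All 6 passed the filter on low values, which 13901 genes passed. RNA-seq had been run on bone marrow-derived macrophages (BMDMs), macrophages grown in culture from mouse bone marrow, of C57BL/6 strain. The control was named LysM-Cre, and FosKO cells were Fos fl/fl with LysM-Cre. The study's text gives the control as Fos fl/+ with LysM-Cre, whereas the series' design gives it as LysM-Cre only. Both genotypes thus carried Cre recombinase at the lysozyme locus Lyz2, which drives deletion in myeloid cells. Cells were left unstimulated (0 h) or given 100 ng/ml LPS, the bacterial ligand of TLR4, for 0.5, 1 or 2 h. There were 3 libraries in every one of the 8 groups, 24 in all. The study calls them biological replicates, without saying which libraries came from separate mice, and the p-values measure only the spread between these libraries. The question of the comparison was which LPS responses differ when Fos, a subunit of the transcription factor AP-1, is targeted.

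ZFP36 (tristetraprolin), ZFP36L1 and ZFP36L2 are related RNA-binding proteins with a pair of CCCH zinc fingers. They bind AU-rich elements in the 3′ untranslated regions of mRNAs, many of them cytokine mRNAs, and recruit the CCR4-NOT deadenylase, which shortens the poly(A) tail. Zc3h12a encodes Regnase-1, an endoribonuclease that cuts mRNAs at stem-loops, and Zc3h12c encodes its relative Regnase-3. Rc3h1 encodes roquin-1, which binds stem-loop decay elements and also recruits CCR4-NOT. In macrophages these factors limit how long the mRNAs of inflammatory mediators last after LPS, and several of them are themselves LPS-induced.

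By GENCODE M21 (GRCm38), all 6 are protein-coding genes. Zfp36 lies on chromosome 7 from 28376784 to 28380253 (minus strand), Zfp36l1 on chromosome 12 from 80107754 to 80113013 (minus), and Zfp36l2 on chromosome 17 from 84183931 to 84187947 (minus). Zc3h12a lies on chromosome 4 from 125118423 to 125127840 (minus), Zc3h12c on chromosome 9 from 52111344 to 52168572 (minus), and Rc3h1 on chromosome 1 from 160906418 to 160974978 (plus).

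The members' own mRNAs were read for the AU-rich nonamer TTATTTATT, the sequence that ZFP36 proteins prefer, to show which of the 6 carry it. The stem-loops of Regnase-1 and roquin-1 were not searched for. The search took the sense strand of the 3′ untranslated region, in the coding transcript in which that region is longest. Of the 6 members, 4 held 1 nonamer each: Zfp36 (region of 774 bases), Zfp36l1 (1835 bases), Zfp36l2 (1822 bases) and Rc3h1 (7181 bases). Zc3h12a (856 bases) and Zc3h12c (4062 bases) held 0. Over 21037 genes with such a region, of median length 960 bases, 7.66% held at least 1. The nonamers are printed in capitals with up to 10 bases on either side, 5′ to 3′ on the transcript strand as DNA letters, from GENCODE M21 transcripts. The coordinates are those of the 9 capital letters, all within the 3′ untranslated region.
Zfp36, chr7:28376961-28376969: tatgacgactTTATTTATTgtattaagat
Zfp36l1, chr12:80108177-80108185: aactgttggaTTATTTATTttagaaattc
Zfp36l2, chr17:84184924-84184932: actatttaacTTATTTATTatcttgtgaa
Rc3h1, chr1:160970053-160970061: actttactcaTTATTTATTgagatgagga

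Promoter windows of 300 bases from RefSeq (GRCm38.p6, 250 bases before to 50 after the start) matched 5 of the 6 members by symbol, with 6 windows, since Zc3h12c had 2. They were read on both strands for AP-1 (TGANTCA), the CArG box of serum response factor, the cAMP response element (TGACGTCA), the NF-kB consensus and the EGR consensus (GCGNGGGCG). None of these matches overlapped another. The Zfp36 window held a CArG box and an EGR match, and the Zfp36l1 and Rc3h1 windows each held 1 AP-1 match. Among 32851 windows of the same length, AP-1 was in 7.81%, the CArG box in 1.63%, the cAMP response element in 1.79%, NF-kB in 4.51% and EGR in 5.55%. A match is a description of letters, and no binding was measured here. The RefSeq starts do not all match GENCODE. The stretch printed for Zfp36 lies within its GENCODE locus, as does 1 whole window of Zc3h12c. The last 50 bases of the window were part of a GENCODE transcript for Zfp36 and Zfp36l1, but not for Zc3h12a, Zc3h12c or Rc3h1. The 150 bases before the RefSeq start are printed for the 3 members with a match, on the gene's strand, with the matches in capitals. In Zfp36 the first run of capitals is the EGR match and the second the CArG box.
Zfp36, chr7:28379229-28379378, minus strand: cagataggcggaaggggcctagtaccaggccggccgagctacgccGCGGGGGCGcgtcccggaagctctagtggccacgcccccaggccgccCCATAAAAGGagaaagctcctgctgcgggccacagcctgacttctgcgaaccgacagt
Zfp36l1, chr12:80113014-80113163, minus strand: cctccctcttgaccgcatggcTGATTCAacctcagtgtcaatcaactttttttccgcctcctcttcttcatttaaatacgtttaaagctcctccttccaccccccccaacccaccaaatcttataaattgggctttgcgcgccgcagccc
Rc3h1, chr1:160906261-160906410, plus strand: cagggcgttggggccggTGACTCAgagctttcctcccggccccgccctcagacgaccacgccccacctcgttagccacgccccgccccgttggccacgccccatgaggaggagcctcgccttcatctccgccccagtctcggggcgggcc

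The labels were checked on Fos and Lyz2. Fos lay between 11.07 and 11.17 in the LysM-Cre libraries at 0 h and between 12.41 and 12.72 in those labelled FosKO. It was higher in the latter at 1 and 2 h too and lower at 0.5 h (log2 differences 1.49, -0.77, 1.64 and 3.29 at 0, 0.5, 1 and 2 h). Over the 4 times the group means of Fos went 11.11, 13.52, 11.15 and 9.52 in LysM-Cre and 12.60, 12.75, 12.78 and 12.80 in FosKO, so the rise and fall after LPS in the control had no counterpart of that size in FosKO. The table has a single value for Fos and none for the targeted exons alone. It therefore cannot check the label, and directions are drawn between libraries as labelled. Across the 4 times Lyz2 was 4.89 to 5.17 higher in FosKO, so the groups also differed in the RNA of the gene that holds Cre. Whether they differed in copies of Cre was not measured. The share of Fos or of Lyz2 in a difference cannot be told apart. All 7 macrophage markers were well detected, between 9.07 and 15.38, with a summed level of 17.03 to 17.16 in LysM-Cre and 17.03 to 17.25 in FosKO. Within that sum Mertk, Fcgr1 and Cd68 were higher in FosKO at all 4 times with no overlap, Mertk with group means of 10.79 against 9.82 at 0 h and 10.79 against 9.14 at 2 h, and Fcgr1 with 13.28 against 12.63 and 12.99 against 12.26. Itgam was lower in FosKO without overlap at 0, 0.5 and 1 h (14.22 against 14.42 at 0 h), Adgre1 at 0 and 1 h (14.68 against 14.82 at 0 h) and Csf1r at 0 h (14.99 against 15.13), while Spi1 was higher without overlap at 0.5 and 1 h (12.85 against 12.69 at 0.5 h). Of the other lists, the 4 T cell markers summed to 7.59 to 7.90 in LysM-Cre and 8.005 to 8.45 in FosKO, and only Cd4 among them passed the filter. The neutrophil markers summed lower in FosKO, without overlap at any time (4.48 to 5.42 in LysM-Cre and 4.12 to 4.69 in FosKO over all times), with S100a8 alone past the filter and Ly6g and Elane at the floor of the table. The fibroblast markers were lower in FosKO without overlap at 0 h (4.01 to 4.30 against 3.33 to 3.995) and 1 h (3.86 to 4.17 against 3.30 to 3.77), and the dendritic cell markers at 2 h (6.76 to 6.90 against 6.37 to 6.42). The B cell markers summed lower in FosKO without overlap at 0.5 h (2.77 to 2.82 against 2.54 to 2.74). The erythroid markers summed higher there at 1 h (-0.186 to -0.184 against -0.183 to -0.006). No B cell or erythroid marker passed the filter. The part of these shifts in any result was not tested. The 18S ribosomal RNA gene Rn18s-rs5 was low in 5 libraries, all at 0.5 or 1 h, and the genotype differences at those times were also fitted in the 19 other libraries, as were the LPS responses. The study gives a typical read yield but none per library, so the depth behind each value is not known, and in bulk RNA fewer expressing cells and less RNA per cell cannot be told apart.

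Values are on the log2 scale as deposited, on which 1 unit is a doubling. Genes were called at an adjusted p under 0.05 (limma with Benjamini-Hochberg adjustment over 13901 genes).

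LPS moved the 6 factors along different time courses. In LysM-Cre cells Zfp36 rose 8.48-fold within 0.5 h and then declined, Zfp36l1 rose and fell below its starting level, and Zfp36l2 fell to 0.164 of its starting level. Zc3h12a climbed throughout, Zc3h12c peaked at 1 h and Rc3h1 drifted upwards. In the libraries labelled FosKO the decline of Zfp36 from 0.5 to 1 h was not called, Zfp36l1 was back at its starting level at 2 h, and Zfp36l2 had fallen less by 1 h. Both Regnase genes and Rc3h1 differed between the genotypes by at most 0.22 at any time.

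**Figure D1:**
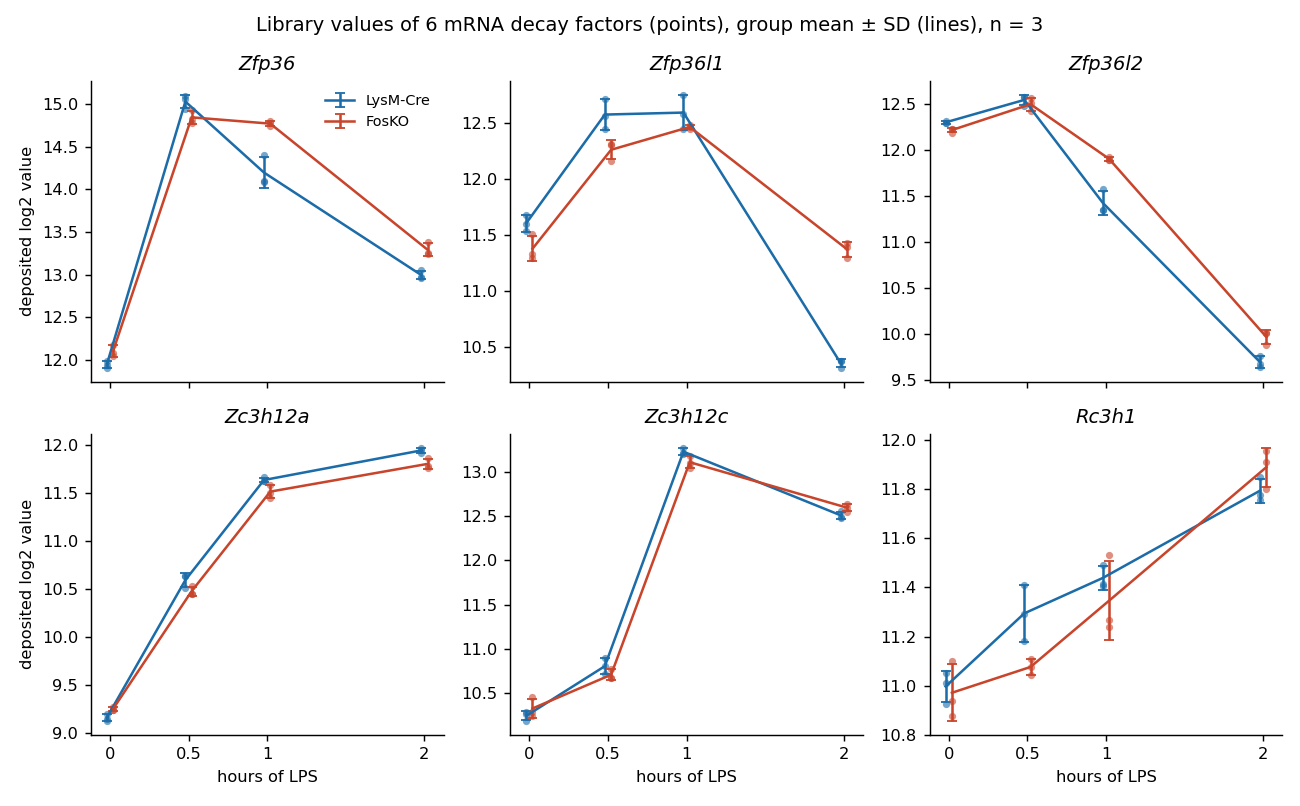
Deposited log2 value of each of the 6 genes (vertical axis, a separate scale per gene) against hours of LPS (horizontal axis), with LysM-Cre in blue and FosKO in red. Points are single libraries and lines join group means with SD bars (n = 3); the genotypes separate for Zfp36 and Zfp36l2 at 1 h and for Zfp36l1 at 2 h.

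Zfp36, the founding member and an immediate early gene, stood at 11.99, 11.94 and 11.91 in the LysM-Cre libraries at 0 h and at 14.94, 15.05 and 15.09 at 0.5 h. These libraries read 14.10, 14.09 and 14.40 at 1 h and 12.96, 12.98 and 13.05 at the last time. No library overlapped one of a neighbouring time. In the libraries labelled FosKO it read 12.04, 12.08 and 12.18 before LPS, 14.83, 14.78 and 14.93 after 0.5 h, 14.74, 14.80 and 14.77 after 1 h, and 13.24, 13.26 and 13.38 after 2 h. The 0.5 and 1 h libraries of this genotype were interleaved, unlike those of the control. From 0.5 to 1 h Zfp36 fell by 0.83 (SE 0.07) in LysM-Cre (adjusted p 2.66e-09 by limma), whereas the difference in FosKO was -0.07 (SE 0.07, adjusted p 0.458 by limma, 95% confidence interval -0.21 to 0.06). Under quantile normalisation the FosKO difference was -0.26 and called (adjusted p 0.00164). The difference between the genotypes in this step was not tested directly. From 1 to 2 h Zfp36 fell by 1.201 in LysM-Cre and fell by 1.48 in FosKO.

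Between the genotypes Zfp36 was higher by 0.16 in FosKO at 0 h (adjusted p 0.0663 by limma, not called), lower by 0.18 at 0.5 h (0.0289), higher by 0.57 at 1 h (SE 0.07, a 1.49-fold difference, 8.57e-07) and higher by 0.30 at 2 h (0.000878). At 1 h the lowest FosKO library (14.74) lay above the highest LysM-Cre library (14.40). The 1 h call held under all 16 alternative settings. One of them kept the high 18S libraries alone (0.69), where 2 FosKO libraries stood against 1 of LysM-Cre, which is assumed to vary like the other groups. The remaining 1 FosKO and 2 LysM-Cre libraries, with low 18S, differed by 0.49, without a test. At 0.5 h the call was lost with the high 18S libraries alone (-0.14, adjusted p 0.0795) and on leaving out replicate 2 or 3 of LysM-Cre or replicate 1 or 2 of FosKO (-0.18 to -0.15). At 2 h the call did not hold under quantile normalisation (0.14, adjusted p 0.0513).

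Zfp36l1, whose protein has the same zinc fingers and the same kind of target, read 11.68, 11.60 and 11.53 in LysM-Cre at 0 h and rose to 12.44, 12.56 and 12.72 at 0.5 h. It stayed at 12.44, 12.58 and 12.75 at 1 h and dropped to 10.31, 10.38 and 10.38 at 2 h. The highest 2 h library (10.38) thus lay below the lowest unstimulated one (11.53). In FosKO the libraries read 11.33, 11.29 and 11.50 before LPS, 12.30, 12.16 and 12.31 after 0.5 h, 12.46, 12.48 and 12.44 after 1 h, and 11.39, 11.30 and 11.43 after 2 h. There the 2 h libraries lay within the range of the unstimulated ones. Against 0 h, Zfp36l1 at 2 h fell by 1.25 in LysM-Cre (SE 0.07, adjusted p 3.79e-12 by limma) and differed by -0.00 in FosKO (SE 0.07, adjusted p 0.965, interval -0.16 to 0.15). Under quantile normalisation that FosKO difference was -0.25 and called (adjusted p 0.00314).

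At 2 h Zfp36l1 was 2.02-fold higher in FosKO (log2 difference 1.02, SE 0.07, adjusted p 8.0e-10 by limma), and the lowest FosKO library (11.30) lay above the highest LysM-Cre library (10.38). This was the widest genotype difference among the 6 genes, and it was called under all 16 alternatives. Earlier it ran the other way. Zfp36l1 was lower in FosKO by 0.23 at 0 h (adjusted p 0.0184) and by 0.31 at 0.5 h (0.00145), and at 1 h the value was -0.13 (0.187, not called). The 1 h value was called without LysM-Cre replicate 1 (-0.20, adjusted p 0.0443) and under quantile normalisation (-0.21, 0.0197), and with the high 18S libraries alone it changed sign (0.021, 0.899). The 0 h call was lost on leaving out replicate 1 of LysM-Cre or replicate 1 or 2 of FosKO (-0.20 to -0.19), while that at 0.5 h held under all 16 alternatives, among them the high 18S libraries (-0.26, 2 against 2).

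Zfp36l2, the third paralog, is abundant in resting cells. It read 12.31, 12.29 and 12.28 in LysM-Cre before LPS, 12.47, 12.57 and 12.57 after 0.5 h, 11.35, 11.35 and 11.57 after 1 h, and 9.64, 9.76 and 9.66 after 2 h. In FosKO the values were 12.22, 12.18 and 12.23, then 12.50, 12.42 and 12.55, then 11.92, 11.88 and 11.89, and then 10.01, 9.87 and 10.01. After a small rise at 0.5 h (0.24 in LysM-Cre, 0.28 in FosKO) it fell in both genotypes, and at 2 h no other member was as far below its unstimulated level. The fall from 0.5 to 1 h was 1.12 in LysM-Cre and 0.59 in FosKO, while that from 1 to 2 h was 1.73 and 1.94. Zfp36l2 was therefore higher in FosKO by 0.48 at 1 h (SE 0.05, 1.39-fold, adjusted p 3.78e-07 by limma) and by 0.27 at 2 h (SE 0.05, adjusted p 0.000174). At neither time did the genotypes overlap, and both calls held under all 16 alternatives. With high 18S libraries alone (2 FosKO against 1 LysM-Cre) the 1 h value was 0.54, and the low 18S ones (1 against 2, not tested) gave 0.46. At 0 and 0.5 h the differences were -0.08 and -0.05, neither called, although quantile normalisation called both (-0.16 and -0.13).

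Zc3h12a (Regnase-1) read 9.19, 9.13 and 9.14 in LysM-Cre before LPS, 10.51, 10.64 and 10.63 after 0.5 h, 11.62, 11.66 and 11.63 after 1 h, and 11.95, 11.98 and 11.92 after 2 h. In FosKO the libraries read 9.24, 9.27 and 9.24, then 10.45, 10.45 and 10.53, then 11.45, 11.51 and 11.59, and then 11.79, 11.77 and 11.87. It rose at every step in both genotypes, by 2.79 over 2 h in LysM-Cre and by 2.56 in FosKO. Starting from a value 0.09 higher in FosKO (adjusted p 0.0612 by limma, not called), it was lower there after LPS, by 0.12 after 0.5 h (0.0170), by 0.12 after 1 h (0.0158) and by 0.14 after 2 h (SE 0.04, 0.00412). These are differences of under 10%, and at 1 and 2 h the LysM-Cre libraries all lay above the FosKO ones. The 2 h call held under all 16 alternatives. Those at 0.5 and 1 h were lost in the high 18S libraries (-0.08 and -0.07, adjusted p 0.179 and 0.400). Leaving out single libraries ended them too. At 0.5 h these were replicates 2 and 3 of LysM-Cre and 1 and 2 of FosKO (-0.10 to -0.09), and at 1 h replicate 2 of LysM-Cre and replicates 1 and 2 of FosKO (-0.12 to -0.09). With only the compared groups in the fit the 0.5 h call was lost as well (adjusted p 0.0746).

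Zc3h12c (Regnase-3) read 10.18, 10.26 and 10.28 in LysM-Cre before LPS, 10.71, 10.89 and 10.81 after 0.5 h, 13.27, 13.20 and 13.21 after 1 h, and 12.50, 12.56 and 12.48 after 2 h. In FosKO the values were 10.24, 10.29 and 10.45, then 10.67, 10.67 and 10.78, then 13.10, 13.05 and 13.18, and then 12.64, 12.60 and 12.55. Most of its induction fell between 0.5 and 1 h, at 2.43 in LysM-Cre and 2.40 in FosKO (5.37-fold and 5.29-fold), which was the steepest step between these times among the 6 genes in both genotypes. It was called different between the genotypes at none of the 4 times (differences from -0.12 to 0.09, adjusted p from 0.0826 to 0.228 by limma), with confidence intervals that stayed between -0.23 and 0.19. Some alternatives did call it lower in FosKO, quantile normalisation at 0.5 and 1 h (-0.15 and -0.16), leaving out LysM-Cre replicate 1 at 0.5 h (-0.14, adjusted p 0.0466) and leaving out FosKO replicate 3 at 1 h (-0.15, 0.0472). With only the groups compared it was called higher at 2 h (0.09, 0.0497).

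Rc3h1 (roquin-1) had the smallest range. In LysM-Cre it read 10.93, 11.01 and 11.05 before LPS, 11.18, 11.41 and 11.29 after 0.5 h, 11.49, 11.42 and 11.41 after 1 h, and 11.76, 11.85 and 11.78 after 2 h. In FosKO it read 10.88, 10.94 and 11.10, then 11.08, 11.04 and 11.11, then 11.24, 11.27 and 11.53, and then 11.91, 11.96 and 11.80. Over 2 h it rose by 0.80 and 0.92. It was lower in FosKO by 0.22 at 0.5 h (SE 0.07, adjusted p 0.0165 by limma), where the libraries did not overlap. That call was lost with the high 18S libraries alone, where the value was the same in size (-0.22, adjusted p 0.0700), and without LysM-Cre replicate 2 or FosKO replicate 2 (-0.16 and -0.20). At the other times the differences lay between -0.09 and 0.10 and none was called, but without FosKO replicate 3 that at 1 h was -0.19 and called (adjusted p 0.0347).

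**Figure D2:**
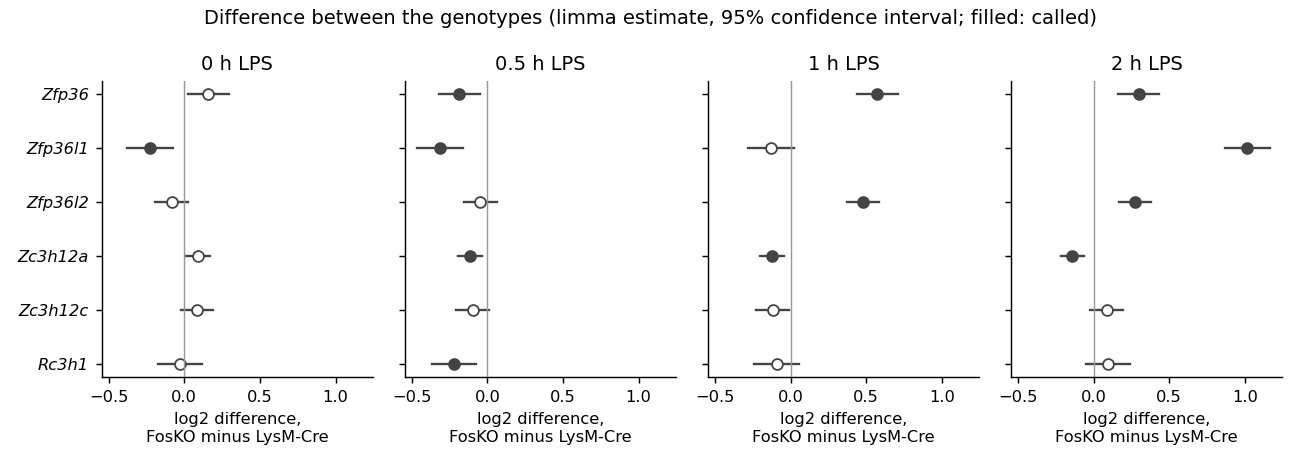
Log2 difference FosKO minus LysM-Cre (horizontal axis) of each gene (vertical axis) at 4 LPS times, as limma estimates with 95% confidence intervals, filled where called. Only Zfp36l1 reaches 1.02, at 2 h, and Zfp36 and Zfp36l2 stand at 0.57 and 0.48 at 1 h.

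Counted over the 6 members, 1 was called between the genotypes at 0 h (lower in FosKO), where 35.4% of all genes tested were called. At 0.5 h it was 4 of 6, all lower, against 40.9% of all genes, and at 1 h 3 of 6, with 2 higher and 1 lower, against 33.9%. At 2 h it was 4 of 6, with 3 higher and 1 lower, against 44.6%. For 6 genes these shares lie near the background, and the counts say nothing particular to the members. Leaving out single libraries gave 0 to 1 at 0 h, 1 to 5 after 0.5 h, 2 to 5 after 1 h and 4 in each case after 2 h, and quantile normalisation gave 6 after 0.5 h.

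More members were called in the LPS comparisons. At 0.5 h all 6 were called in LysM-Cre, each higher, where 7.24% of all genes were called, and 5 of 6 in FosKO, where 5.92% were. Rc3h1 was the exception (0.11, adjusted p 0.444 by limma). Its call in LysM-Cre (0.30) was lost without LysM-Cre 0 h replicate 1 or 0.5 h replicate 2 (0.26 and 0.24), so this split between the genotypes rests on single libraries. At 1 h all 6 were called in both genotypes, 5 higher and Zfp36l2 lower, against 35.8% of all genes in LysM-Cre and 32.6% in FosKO. At 2 h 6 of 6 were called in LysM-Cre (60.8% of all genes) and 5 of 6 in FosKO (62.1%). Of the steps, 4 of 6 were called from 0.5 to 1 h in LysM-Cre (26.8% of all genes) and 5 of 6 in FosKO (27.5%), and 6 of 6 from 1 to 2 h in both (52.3% and 50.7%). Zfp36l1 in FosKO from 0.5 to 1 h (0.20, adjusted p 0.0412) lost its call without any single FosKO library of those times except 0.5 h replicate 3, with values from 0.16 to 0.23, and also under quantile normalisation (0.094), with no filter and with no variance trend. Rc3h1 in the same step (0.27) lost its call without FosKO 1 h replicate 3 (0.18, adjusted p 0.0542) and, at the same size, with only the groups compared (0.0547). With the 19 high 18S libraries alone no call of a member was lost or gained in the LPS responses at 0.5 and 1 h or in the step between them. There the step was -0.90 for Zfp36 and -1.18 for Zfp36l2 in LysM-Cre, with 1 library of that genotype at 1 h.

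**Figure D3:**
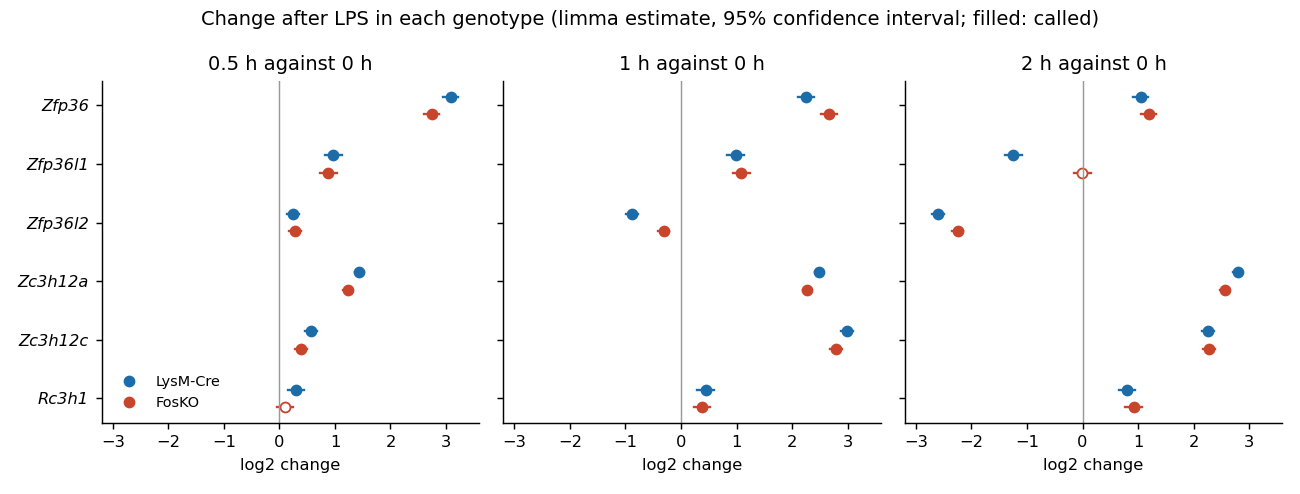
Log2 change against 0 h (horizontal axis) of each gene (vertical axis) after 0.5, 1 and 2 h of LPS in LysM-Cre (blue) and FosKO (red), as limma estimates with 95% confidence intervals, filled where called. At 2 h the intervals of Zfp36l1 in the genotypes are far apart, at -1.25 and -0.00.

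Whether the LPS response differed by genotype was tested as the interaction of genotype and time against 0 h. At 0.5 h 0 of 6 members were called by limma, 3 of 6 had an unadjusted p under 0.05, and 0.115% of all genes were called. The largest values there were -0.34 for Zfp36 (adjusted p 0.412) and -0.21 for Zc3h12a (0.345). At 1 h 2 of 6 were called, where 1.22% of all genes were. Zfp36l2 responded 0.56 higher in FosKO (SE 0.07, adjusted p 9.59e-05 by limma), having fallen by 0.31 there and by 0.88 in LysM-Cre, and the call held under all 22 alternatives. Zfp36 responded 0.41 higher (SE 0.09, 0.0249), rising by 2.67 against 2.25. Its call held under 13 of 22 alternatives and was lost without any one of LysM-Cre 0 h replicate 1 or 2, LysM-Cre 1 h replicate 1 or 2, FosKO 0 h replicate 1 or 2, or FosKO 1 h replicate 2 or 3 (0.36 to 0.42, adjusted p 0.0566 to 0.0949), and with only the groups compared in the fit (adjusted p 0.113). Zc3h12a, at -0.21 (0.0531), was not called. It was called under quantile normalisation (-0.27, 0.00193), with the filter at 50 (0.0461), with the replicate block (0.0378) and without FosKO 1 h replicate 3 (-0.25, 0.0153).

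At 2 h the interaction was called for 3 of 6 members, where 15% of all genes were called. Zfp36l1 responded 1.24 higher in FosKO (SE 0.10, adjusted p 5.35e-08 by limma), Zfp36l2 0.36 higher (SE 0.07, 0.00168) and Zc3h12a 0.23 lower (SE 0.05, 0.00435). All of these calls held under the 22 alternatives. Zfp36, at 0.14 (0.370), was not called, and neither were Zc3h12c (0.00, 0.989) and Rc3h1 (0.12, 0.479). The interaction shares its 0 h libraries between times, so the values at 0.5, 1 and 2 h are not separate evidence.

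Set against the length of their exons, the members changed order with time. The scale here is the log2 value per kb of merged exon, from 2.882 kb for Zc3h12a to 11.308 kb for Rc3h1. At 0 h in LysM-Cre Zfp36l2 was highest (10.48 ± 0.02, SD, n = 3), followed by Zfp36 (10.15 ± 0.04) and Zfp36l1 (10.02 ± 0.08). Zc3h12a (7.63 ± 0.04), Rc3h1 (7.50 ± 0.07) and Zc3h12c (7.47 ± 0.05) lay more than 2 units lower, and the last 2 did not differ beyond their spread. At 0.5 h Zfp36 led at 13.23 ± 0.08, more than 2 units above Zfp36l1 (10.99 ± 0.14). By 2 h in LysM-Cre the order was Zfp36 (11.20), Zc3h12a (10.42), Zc3h12c (9.74), Zfp36l1 (8.78), Rc3h1 (8.30) and Zfp36l2 (7.87). In FosKO at 2 h the order was the same, but Zfp36l1 (9.79 ± 0.07) was level with Zc3h12c (9.82 ± 0.04), within their spread. On merged exons Zfp36l2 thus went from the first to the last place in both genotypes. The merged exons of Zfp36 (3.470 kb) cover its whole locus, so its intron counts as exon, while its longest transcript has 2790 bases. With the longest transcript as the length, Zfp36 (10.46) was level with Zfp36l2 (10.48) at 0 h in LysM-Cre. The first place at 0 h thus depends on the length used.

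**Figure D4:**
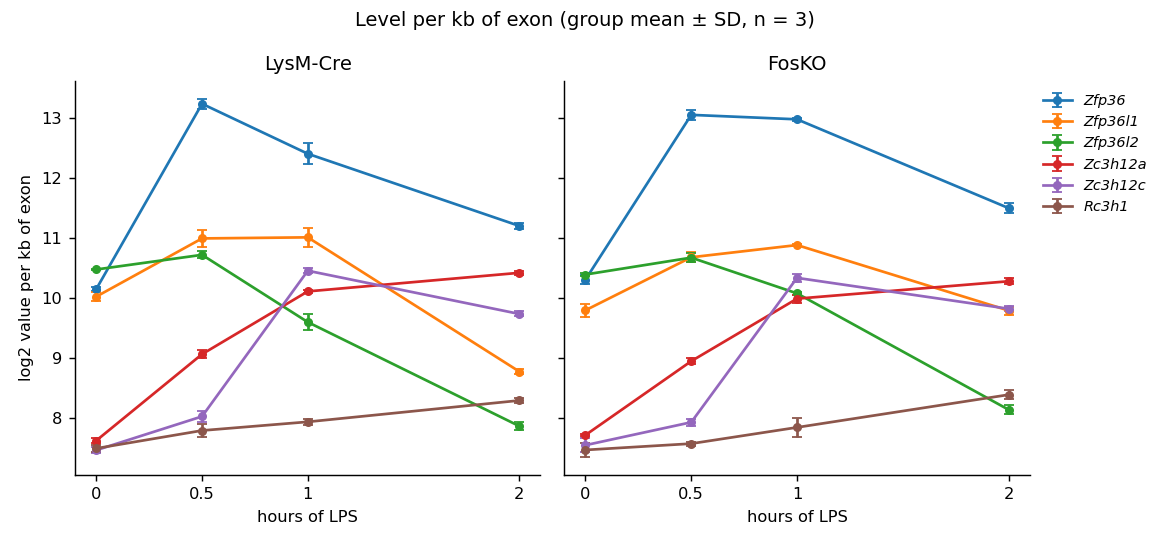
Log2 value per kb of merged exon (vertical axis) of each gene against hours of LPS (horizontal axis) in LysM-Cre and FosKO, as group means with SD bars (n = 3). On this scale Zfp36l2 passes from the highest level at 0 h to the lowest at 2 h, and Zfp36 leads from 0.5 h on. The lead of Zfp36l2 over Zfp36 at 0 h depends on the length used.

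For each member the 3 genes with the highest Pearson's r over all 24 libraries were taken. The libraries share their LPS times, so that r mostly follows the time course. It does not weigh the size of a change. Group means spanned 0.66 for Zmym3 and 2.85 for Zfp36l2, and 5.64 for Egr1 and 3.08 for Zfp36. Zfp36 was most like Egr1 (0.971), Ier3 (0.967) and Junb (0.959), which are immediate early genes. Zfp36l1 was most like Nabp1 (0.960), Cpeb2 (0.944) and Dusp8 (0.938). Zfp36l2 was most like Zc3h12d (0.988), itself a Regnase relative, with Akap10 (0.986) and Zmym3 (0.985). Zc3h12a went with Mir155hg (0.995), the host gene of miR-155, Il1b (0.994) and Clcf1 (0.983), and Zc3h12c with Bcl2l11 (0.994), Zswim4 (0.992) and Skil (0.989). Rc3h1 was most like Btaf1 (0.982), Mgat4a (0.974) and Pak2 (0.968). Among the members, r was 0.906 between Zc3h12a and Zc3h12c and 0.713 between Zfp36 and Zfp36l1, and it was -0.892 between Zfp36l2 and Rc3h1.

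The listed relatives were Zfp36l3, Zc3h12b, Zc3h12d and Rc3h2 of the same families, with N4bp1 and Khnyn from outside them, which are related by the endoribonuclease (NYN) domain. Zfp36l3 and Zc3h12b did not pass the filter, with values at the floor of the table near -2.2 for Zfp36l3 and group means between 1.19 and 1.43 for Zc3h12b. The remaining 4 were all called higher in FosKO at 2 h, where 44.6% of all genes were called in either direction: N4bp1 by 0.46, Zc3h12d by 0.41, Khnyn by 0.33 and Rc3h2, the roquin-2 gene, by 0.15. The median was 0.37, against 0.00 over all genes tested. At 0, 0.5 and 1 h 1 of the 4 was called each time, beside 35.4%, 40.9% and 33.9% of all genes. N4bp1, which encodes a protein with an endoribonuclease domain related to that of Regnase-1, was also called at 0 h (0.47) and 0.5 h (0.55). In the LPS response at 2 h the genotypes differed for Khnyn (0.38, adjusted p 0.000710 by limma) and Zc3h12d (0.34, 1.62e-05), and 2 of 4 were not called, against 15% of all genes called. Zc3h12d, like Zfp36l2, fell after LPS, by 1.52 in LysM-Cre and 1.18 in FosKO at 2 h.

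The machinery that these factors recruit is that of deadenylation and decapping. Of its 25 listed genes, 3 were called higher and 1 lower in FosKO before LPS, 4 and 6 after 0.5 h, 3 and 3 after 1 h, and 7 and 4 after 2 h. These were 4, 10, 6 and 11 of 25, beside 35.4%, 40.9%, 33.9% and 44.6% of all genes. The median at 2 h was 0.00, the same as over all genes to 2 decimals. The largest differences at 2 h were 0.52 for Tnks1bp1, a CCR4-NOT-associated protein, 0.51 for the 5′ to 3′ exonuclease Xrn1 and 0.34 for the decapping enzyme Dcp2. Dcp2 was higher in FosKO at all 4 times, by 0.34 to 0.40. In the LPS response 0 of 25 differed by limma at 0.5 h, where 0.115% of all genes did, and 0 of 25 at 1 h, where 1.22% did. At each of these times 4 of 25 had an unadjusted p under 0.05. At 2 h 6 of 25 differed, where 15% of all genes did. After 2 h of LPS 11 of 25 rose and 8 fell in LysM-Cre, led by Dcp2 (0.83) and Dcp1a (0.72), and 11 rose and 9 fell in FosKO, beside 60.8% and 62.1% of all genes called.

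Of 10 other RNA-binding proteins of mRNA stability, 3 were called higher and 4 lower in FosKO at 2 h, beside 44.6% of all genes called. Arid5a, whose protein is known to stabilise Il6 mRNA, stood apart at 1.13 (adjusted p 2.95e-08 by limma), and it was higher at 0, 0.5 and 1 h as well (0.52, 0.47 and 0.31). Over 2 h of LPS it rose by 1.59 in the control and by 2.20 in FosKO, an interaction of 0.62 (0.00679). Tia1 was lower by 0.29 and Tial1 by 0.20, whereas Celf1 was higher by 0.18.

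Of 12 regulators that act on ZFP36 or Regnase-1 or lie upstream of them, mostly enzymes but with the 14-3-3 protein gene Ywhaz among them, 3 were called higher and 4 lower at 2 h (median 0.01), again beside 44.6% of all genes. Map2k3, a kinase upstream of p38, was lower in FosKO already at 0 h, by 0.27, and by 0.28, 0.50 and 0.59 at 0.5, 1 and 2 h. Dusp1, a phosphatase that switches p38 off, differed by -0.03 at 0 h (not called) and was lower by 0.36, 0.31 and 0.27 at 0.5, 1 and 2 h, and its LPS response was smaller at each of these times (-0.33, -0.28 and -0.24, adjusted p 0.00604, 0.00535 and 0.00319 by limma). Mapkapk3 was higher by 0.46 before LPS and by 0.54, 0.48 and 0.17 at the same times. For Mapkapk2, the p38-activated kinase that phosphorylates ZFP36, the differences were 0.17 before LPS and then 0.29, 0.16 and 0.18. Malt1, the protease that cleaves Regnase-1, rose over 2 h by 2.57 in LysM-Cre and 2.68 in FosKO.

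The mRNAs known as targets of these factors did not differ between the genotypes as 1 group. Nearly all of them were LPS-induced. At 2 h 12 of 12 ZFP36 targets were called higher than at 0 h in both genotypes. So were 8 of 9 tested Regnase-1 or roquin targets, beside 60.8% of all genes called in LysM-Cre and 62.1% in FosKO. Other genes with a like induction were not set beside them, so the counts below may not be particular to decay targets. Of 12 known ZFP36 targets, all tested, 3 were called higher and 0 lower in FosKO before LPS, 3 and 7 after 0.5 h, 4 and 4 after 1 h, and 7 and 4 after 2 h, when the median was 0.44. The shares of all genes called at these times were 35.4%, 40.9%, 33.9% and 44.6%. At 2 h Il6 (1.41), Ptgs2 (0.96) and Ccl3 (0.74) were higher, and Il10 (-1.70) and Csf2 (-1.31) lower. Tnf, the best known ZFP36 target, was 0.38 higher at 1 h and 0.57 higher at 2 h, when Zfp36 itself was higher by 0.57 and 0.30. At 0.5 h, when Zfp36 and Zfp36l1 were lower by 0.18 and 0.31, Csf2 (-1.07), Il10 (-0.75) and Cxcl1 (-0.69) were lower and Il6 (0.66) higher. In the LPS response 0 of 12 were called higher and 2 lower in FosKO at 0.5 h, beside 0.115% of all genes called. At 1 h it was 1 higher and 3 lower (1.22%), and at 2 h 4 higher and 3 lower (15%).

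Of 9 tested targets of Regnase-1 or roquin (11 listed, of which Il6, Ptgs2 and Tnf are in the ZFP36 list too), 7 were called higher and 1 lower in FosKO at 2 h, with a median of 0.39, beside 44.6% of all genes called. Il6 and Il12b were highest at 1.41 and 1.39, with Ptgs2 at 0.96 and Tnf at 0.57. Tfrc, the transferrin receptor gene, was lower by 0.51 and had been lower by 0.53 at 0 h. Earlier the counts were 3 higher and 2 lower at 0 h, again 3 and 2 at 0.5 h, and 5 and 2 at 1 h, beside 35.4%, 40.9% and 33.9% of all genes. In the LPS response 0 of 9 differed by limma at 0.5 h (3 at an unadjusted p under 0.05; 0.115% of all genes called) and 2 of 9 were higher at 1 h (1.22%). At 2 h 7 of 9 were higher in FosKO, with Il6 at 1.29 and Il12b at 1.05 (adjusted p 1.21e-05 and 6.44e-05 by limma). Of all 13901 genes 15% were called there, 1010 higher and 1071 lower. RNA levels in these libraries do not separate synthesis from decay, and no protein was measured. A link between the levels of the members and those of the targets in either list was not tested.

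**Figure D5:**
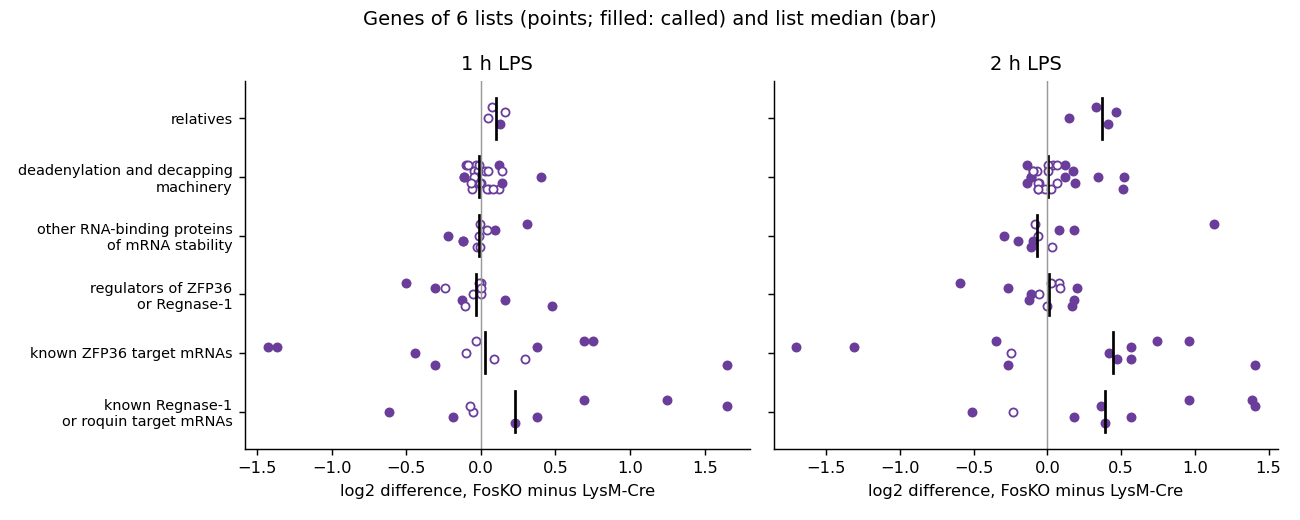
Log2 difference FosKO minus LysM-Cre (horizontal axis) of the genes of 6 lists (vertical axis) at 1 and 2 h of LPS, with 1 point per gene, filled where called, and a bar at each list's median. The target lists spread from -1.70 to 1.41 at 2 h while the deadenylation and decapping genes stay between -0.14 and 0.52.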

How the data were processed

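The authors extracted RNA with the RNeasy kit, made TruSeq libraries with strand-specific single-end reads, and counted genes with RSEM 1.2.31 and STAR 2.5.2a on GRCm38 (per the submitters' processing notes, which also name DESeq2 1.16.1). The deposited values are log2 values, already normalised. They run from -2.22 to 19.39 and resemble a regularised log, which no source states. Such a scale pulls low genes towards their mean, and counts were not analysed here, so the depth of each library is not known, although the study states a typical yield. The study names RefSeq genes, whereas the table carries Ensembl identifiers.

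From these values limma 3.58.1 (R 4.3.3) was fitted to 8 group means over 24 libraries, with empirical Bayes and a trend on the mean. A gene entered if 3 or more libraries had a linear value of 5 or more, which left 13901 genes. Benjamini-Hochberg adjustment ran over them in each of 17 comparisons. Exact permutation tests of 3 against 3 libraries cannot go below 0.1 and were not used. The fit was tested on simulated data. Of 99 listed genes, 96 matched by symbol, 1 by identifier and 2 not at all.

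The members and lists were chosen with earlier results of these data known. Named genes were the 6 members, the 3 genes most like each, and at most 4 called genes of the largest difference per list and comparison, with others named for their role after their values were seen. Members were read from GENCODE M21 and RefSeq. Alternatives were quantile normalisation, median centring, a pseudocount of 1 on the linear scale, no filter or a filter at 50, no variance trend, only the groups compared, a replicate block (and one within FosKO, added after seeing the data), the 18S set as a term, the 19 high 18S libraries alone, each library left out in turn, and the longest transcript as length. Protein sequences were not used here.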

Additional observations from a re-analysis of the deposited data

Results flagged for a closer look

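In 5 cases the LPS response of a member differed between the genotypes by the interaction test in limma, as the report gives with errors and adjusted p. At 1 h these were Zfp36, with a response 0.41 higher in the libraries labelled FosKO, and Zfp36l2, with one 0.56 higher. At 2 h they were Zfp36l1 (1.24 higher), Zfp36l2 (0.36 higher) and Zc3h12a (-0.23, lower). Groups of 3 libraries were not tested for outlying libraries. The Zfp36 call held under 13 of 22 alternatives and was lost on leaving out any of 8 single libraries or with only the groups compared (adjusted p 0.113), while the other 4 held under all 22. All 5 were kept with the 18S set as a term and with the high 18S libraries alone, and every library at 0 and 2 h was in the high 18S set. The part of Lyz2 or of the Cd4 level in these differences was not tested.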

How the results depend on the processing

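Of 72 member results that were called, none changed direction under any alternative run, and 1149 of their 1192 alternative values kept the call. The count of members called between the genotypes was 1 at 0 h, and became 3 under quantile normalisation, 2 with median centring, 2 with only the groups compared, 3 with the replicate block and 2 with the high 18S libraries, with a range of 0 to 1 when single libraries were left out. At 0.5 h, where 4 were called, it was 1 with the high 18S libraries, 6 under quantile normalisation, 3 with only the groups compared and 1 to 5 without single libraries. At 1 h, where 3 were called, it was 5 under quantile normalisation and 2 to 5 without single libraries. With the high 18S libraries, 1 of them LysM-Cre at 1 h, Zc3h12a there was -0.07 instead of -0.12. At 2 h, where 4 were called, Zfp36 lost its call under quantile normalisation (adjusted p 0.0513 by limma). Zc3h12c gained one there with only the groups compared (0.0497). For the difference in LPS response the count of members called was 1 instead of 0 at 0.5 h under quantile normalisation. At 1 h it was 1 instead of 2 with only the groups compared, 1 to 2 without single libraries, and 3 under quantile normalisation, with the filter at 50 and with the replicate block, each of which added Zc3h12a. The step from 0.5 to 1 h in FosKO gave 3 to 5 without single libraries. The cause of these changes was not tested.

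Values near 0 that were not called changed sign. Under quantile normalisation Zc3h12c at 2 h became -0.066 and Rc3h1 at 2 h -0.028 between the genotypes, Zfp36l1 in LysM-Cre from 0.5 to 1 h -0.095, and Zc3h12c in the difference of response at 2 h -0.092. Median centring gave 0.053 for Zfp36l1 in FosKO at 2 h against 0 h. Zfp36l1 from 0.5 to 1 h in LysM-Cre was -0.024 with the 18S set as a term and -0.058 with the high 18S libraries, where Zfp36l1 at 1 h between the genotypes was 0.021. Without single libraries Rc3h1 at 0 h ranged from -0.090 to 0.022, Zc3h12c in the difference of response at 2 h from -0.041 to 0.066, Zfp36l1 from 0.5 to 1 h in LysM-Cre from -0.062 to 0.092 and Zfp36l1 in FosKO at 2 h against 0 h from -0.045 to 0.060. Quantile normalisation also moved the share of higher genes among all called at 2 h from 54.6% to 43.0%.

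Same-numbered libraries deviated together (every r over 0.1) in 2 of 14 comparisons, with r from -0.527 to 0.706, both within FosKO (0.5 h against 0 h and 1 h against 0.5 h). A replicate block within FosKO, added after seeing the data, changed no member's call there, with 5 of 6 called in each, while 1168 instead of 823 and 4230 instead of 3819 of all genes were called. In the other 12 the libraries share only a number. With the replicate block Zfp36 (adjusted p 0.0193) and Zc3h12a (0.0488) at 0 h and Zc3h12a in the difference of response at 1 h (0.0378) became called, and no member lost a call. With the longest transcript as length the level per kb at 0 h in LysM-Cre was 10.46 for Zfp36 and 7.69 for Zc3h12a.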
